A study of Caenorhabditis elegans with 40 samples.

Results

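Meiotic chromosomes pair, align and exchange DNA on a protein scaffold. In C. elegans this scaffold, the chromosome axis, is built from cohesin complexes that hold the meiotic kleisin REC-8 and from a family of HORMA domain proteins, HTP-3, HIM-3, HTP-1 and HTP-2. The SYP proteins then polymerize between the axes of paired homologs and form the central region of the synaptonemal complex. HIM-8 is a zinc finger protein that binds the pairing center of the X chromosome, and without it the X chromosomes fail to pair and males arise among the self progeny. All of these proteins act in the germline, where both sexes make sperm during development and hermaphrodites later switch to oocytes.

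The 10 listed axis and synapsis genes were him-3, htp-1, htp-2, htp-3, syp-1, syp-2, syp-3, syp-4, him-8 and rec-8. They were chosen by name, with earlier results of these data known. Of these 10 genes, 8 have a row among the 11933 genes of the count table. Rows for syp-2 and him-8 were not analysed here. RNA of pooled whole animals was measured in 40 libraries. Males and hermaphrodites had 4 biological repeats each at 5 stages, the larval stages L1 to L4 and the young adult (YA). All male samples had the genotype dpy-28(y1);him-8(e1489), in which dpy-28(y1) is a temperature-sensitive allele of a dosage compensation gene that kills most XX animals, and immobile XX survivors were removed at L1. The hermaphrodites were of the wild-type strain N2, and both strains were grown at 25 °C. All males therefore carry a him-8 mutation and all hermaphrodites are wild type at him-8 and dpy-28, and with 1 strain for each sex, an effect of strain cannot be told apart from one of sex. The p-values measure the spread between these repeats.

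The level of a gene is given as a normalized UMI count. This is the number of molecules counted near the 3′ end of its transcripts (unique molecular identifiers, UMIs), scaled to the mean effective library size of the 40 libraries. Libraries held 1724365 to 14129759 UMIs (median 5616412). A gene was called when its adjusted p was at or below 0.05 over the 8110 genes tested, its log2 fold change was at least 1 in either direction and its mean normalized count was at least 5. Fold changes are given as log2 with their standard error (SE), males over hermaphrodites or later stage over earlier stage. The counting was not stated to use strand. dpy-28, whose transcript level cannot check a point allele, had 193, 98.8, 92.3, 62.4 and 76.4 normalized counts on average in males from L1 to YA, against 251, 75.1, 81.1, 68.9 and 241 in hermaphrodites, and was called lower in males only at YA (log2 fold change -1.66 ± 0.27 SE, adjusted p = 2.43e-06, and -2.18 without YA hermaphrodite repeats 1 and 4). The sexes were checked against markers by their summed normalized counts. The 18 sperm markers summed to 28498 to 31504 in YA males, against 1694 to 8593 in YA hermaphrodites, and the 13 oocyte markers to 1147 to 1188 in YA males, against 17693 to 55441 in YA hermaphrodites. None of the 10 listed embryo markers has a row in the table. Among the 11 soma markers, summed counts without the muscle myosin unc-54 were 9839 to 11983 in YA males, against 2816 to 7428 in YA hermaphrodites. With unc-54 they were 59728 to 67222 in YA males, against 6336 to 11087 in YA hermaphrodites. At L1 the sums with unc-54 were 142112 to 218468 in males, against 14084 to 28496 in hermaphrodites.

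The YA hermaphrodite libraries did not form 1 group. Repeats 2 and 3 had the high oocyte sums (54670 and 55441) and the high sums of 11 germline markers (25434 and 26255), whereas repeats 1 and 4 had 17693 and 23054 for oocyte markers, and 5225 and 7783 for germline markers. Repeats 1 and 4 had the higher sperm sums, 8593 and 7961, against 1694 and 2211 in repeats 2 and 3. In 5 of 8 members, htp-1, htp-2, htp-3, syp-1 and syp-3, both repeats 1 and 4 were above both others, opposite to the germline and oocyte sums, and in 1 of 8, syp-4, both were below. Of all genes tested, 37.1% had both repeats 1 and 4 above the others and 34.9% had both below. For the tested members, YA sex differences and steps are given in the text with all 4 repeats, and again without repeats 1 and 4.

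Summed over the 8 genes, transcripts rose from stage to stage in both sexes, but single genes did not all rise at each step. From L3 to L4, mean syp-3 went from 6.65 to 0.328 in males and from 8.04 to 0.24 in hermaphrodites. The summed normalized count of the 8 averaged 17.3, 50.8, 123, 208 and 357 in males from L1 to YA, and 11.5, 48.5, 153, 335 and 587 in hermaphrodites. The libraries of the sexes overlapped in this sum from L1 to L3 and did not overlap at L4 (190 to 222 in males, against 250 to 415 in hermaphrodites) or at YA (277 to 436 in males, against 528 to 675 in hermaphrodites). At YA syp-4 alone gave 47.7% of this sum in males and 52.6% in hermaphrodites, and in each tested member the libraries of the sexes overlapped. In whole animals, fewer germ cells and less RNA per cell cannot be told apart. The mean sum of the germline markers was also lower in males, at 2380 in L4 males, against 3269 in L4 hermaphrodites. At YA it was 3806 in males, against 16174 in hermaphrodites. The ratio of male to hermaphrodite means at YA was 0.607 for the members and 0.235 for the germline markers. Without YA hermaphrodite repeats 1 and 4 it was 0.663 and 0.147. The part of germline amount in the members' differences was not tested. Between L4 and YA the members' mean sum in hermaphrodites changed 1.75-fold, while that of the germline markers changed 4.95-fold. These ratios, without YA hermaphrodite repeats 1 and 4, were 1.61 for the members and 7.91 for the germline markers. In males the same step was 1.71-fold for the members and 1.60-fold for the germline markers.

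**Figure D1:**
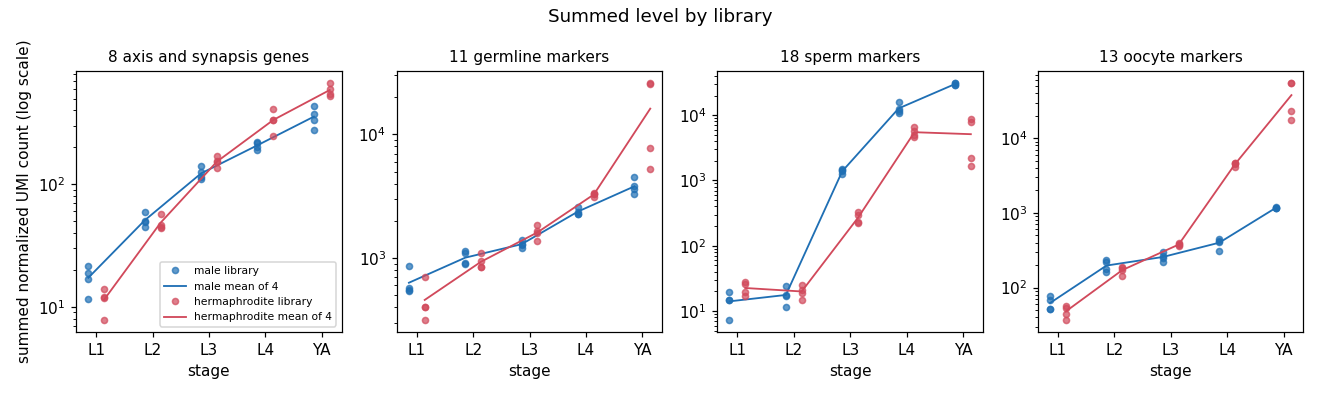
Summed normalized UMI counts (log axis) of the 8 axis and synapsis genes and of 3 marker lists at each stage, in males (blue, left) and hermaphrodites (red, right). Points are libraries and lines join the means of 4. The members' sums overlap between the sexes up to L3 and separate at L4 and YA, and the YA hermaphrodite libraries fall into 2 pairs in the marker lists.

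The members differed widely in counts. syp-4 was highest at YA, at 47.7% of the summed member count in YA males and 52.6% in YA hermaphrodites, followed by htp-3 with 29.2% and 17.3%. At the low end him-3 gave 48 UMIs over the 40 libraries, htp-1 gave 113 and syp-3 gave 161. These 3 members failed the filter on low counts, and 5 members, htp-2, htp-3, rec-8, syp-1 and syp-4, were tested. A 3′ count does not depend on transcript length in the way a read count does, but genes still differ in how well their 3′ ends are captured, so the order of levels between genes is an order of counts.

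**Figure D2:**
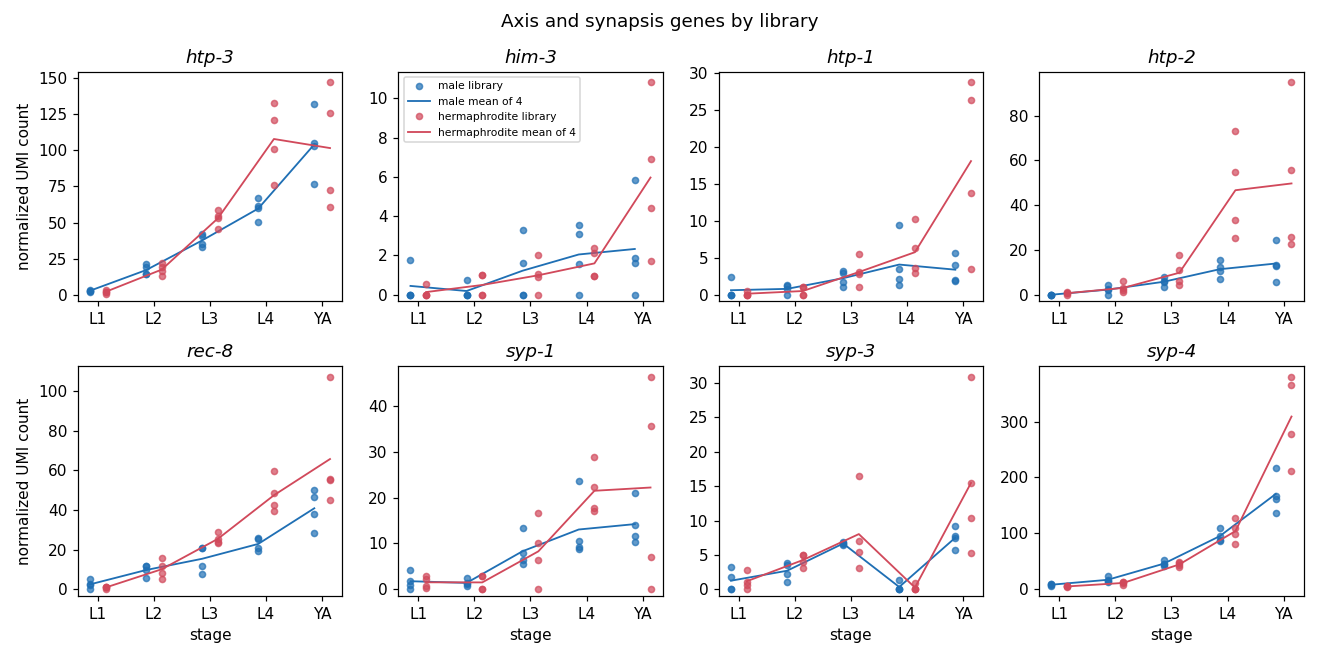
Normalized UMI count (linear axes, one scale per gene) of each of the 8 genes in every library by stage, in males (blue, left) and hermaphrodites (red, right), with lines joining the means of 4. Most genes climb with stage, htp-2 separates the sexes at L4 (7.05 to 15.5 in males, 25.4 to 73.3 in hermaphrodites), and syp-3 lies near 0 at L4 in both sexes.

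HTP-3 is the HORMA domain protein on which the others of its family depend for loading onto the axis, and it is also needed for the DNA breaks that start recombination. Its gene lies on chromosome I (WBcel235, 4827072 to 4829791, plus strand). In males htp-3 had 2.43, 3.58, 2.91 and 2.11 normalized counts at L1, 14, 14.1, 18.9 and 21.2 at L2, 32.8, 41.8, 35.4 and 40.4 at L3, 61.7, 59.8, 66.9 and 50.2 at L4 and 105, 103, 132 and 76.4 at YA. In hermaphrodites it had 0.68, 1.91, 3.36 and 2.15 at L1, 21.9, 12.8, 16.1 and 18.9 at L2, 58.4, 54.4, 53.2 and 45.5 at L3, 121, 76.3, 133 and 101 at L4 and 126, 72.8, 60.4 and 147 at YA. Each male stage lay above the one before it with no overlap between libraries, and in hermaphrodites this held up to L4, after which the YA libraries spread over the L4 range. In males htp-3 rose from L1 to L2 by 2.61 ± 0.41 (SE) on the log2 scale (adjusted p = 4.96e-06) and from L2 to L3 by 1.12 ± 0.28 (adjusted p = 0.00281). In hermaphrodites it rose by 3.14 ± 0.35 (adjusted p = 1.96e-09), by 1.60 ± 0.27 (adjusted p = 2.98e-05) and, from L3 to L4, by 1.03 ± 0.25 (adjusted p = 0.00115), the last being lost without L3 hermaphrodite repeat 4 (0.97), L4 hermaphrodite repeat 1 (0.97) or repeat 3 (0.92) or L4 male repeat 2 (1.00), which put it at or just under the fold threshold. It was also lost with DESeq2 size factors (0.99), with DESeq2's Wald test (1.00), with the L3 and L4 hermaphrodites fitted alone (0.94) and after thinning to the smallest library (0.82, adjusted p = 0.0527). The sexes did not overlap at L3 (log2 fold change -0.50 ± 0.26, adjusted p = 0.281) or at L4 (-0.86 ± 0.25, adjusted p = 0.0061), but neither difference reached the fold threshold. At YA the male and hermaphrodite libraries overlapped (0.04 ± 0.25, adjusted p = 0.904). Without YA hermaphrodite repeats 1 and 4 they did not overlap, with 76.4 to 132 in males, against 72.8 and 60.4 in hermaphrodites, and the difference was 0.65 (adjusted p = 0.031), under the fold threshold. The hermaphrodite step from L4 to YA was -0.10 ± 0.25 (adjusted p = 0.759), and -0.72 (adjusted p = 0.0178) without these repeats.

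HTP-1 and HTP-2 are close paralogs of this family, and HTP-1 in particular couples homolog pairing to the start of synapsis. Both genes are on chromosome IV (htp-1 at 5390189 to 5391557, minus strand, and htp-2 at 6419522 to 6420898, plus strand). How the counting treated reads shared by the pair is not stated, so the division of counts between them is uncertain. htp-2 had no count in the 4 L1 male libraries and 0 to 1.08 normalized counts in L1 hermaphrodites. It had 2.34, 0, 2.26 and 4.47 in L2 males and 5.88, 8.04, 5.91 and 3.28 in L3 males, against 2.98, 5.92, 2.30 and 0.996 in L2 hermaphrodites and 17.7, 6.34, 11.1 and 4.14 in L3 hermaphrodites. Up to L3 the sexes overlapped.

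Among tested members with counts in both sexes, htp-2 at L4 had the largest sex difference. It had 7.05, 15.5, 10.5 and 12.5 normalized counts in L4 males, against 33.2, 25.4, 73.3 and 54.8 in L4 hermaphrodites, so every male library was below every hermaphrodite library. The log2 fold change was -2.02 ± 0.50 SE, a 4.06-fold lower level in males (adjusted p = 0.00163). At YA htp-2 had 5.54, 24.3, 12.7 and 13.2 in males, against 94.8, 22.5, 25.9 and 55.6 in hermaphrodites. It was again called lower in males (-1.80 ± 0.48, adjusted p = 0.0018), but 1 male library lay above the lowest hermaphrodite library, and without YA hermaphrodite repeats 1 and 4 the difference was -0.77 (adjusted p = 0.244) and no longer called. After thinning to the smallest library the differences were -2.57 at L4 (adjusted p = 0.00401) and -2.07 at YA (adjusted p = 0.00454), neither called because the mean count of 4 was then under the minimum. The hermaphrodite step from L4 to YA was 0.05 ± 0.45, and -0.99 (adjusted p = 0.126) without repeats 1 and 4. In hermaphrodites htp-2 rose 4.74-fold from L3 to L4 (log2 2.24 ± 0.50, adjusted p = 4.69e-04), while the same step in males was 1.02 ± 0.58 (adjusted p = 0.177). The test of the difference between these steps gave -1.22 ± 0.78 (adjusted p = 0.329), so the step was not shown to differ between the sexes. From L1 to L2 htp-2 was called higher in both sexes. In males, with no count at L1, the level at L2 was at least 2.30-fold higher than a floor of 3 counts over the 4 L1 libraries, and in hermaphrodites the log2 fold change was 2.09 ± 0.79 (adjusted p = 0.0308). The male call was lost without any 1 of L1 male repeats 2, 3 and 4 or L2 male repeat 4 (adjusted p 0.0547 to 0.0851), and the hermaphrodite call without L1 repeat 1 or L2 repeats 1 or 2 (adjusted p 0.0512 to 0.159).

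htp-1 was counted more sparsely. It had 1 UMI over the 4 libraries of L1 in males and 1 in hermaphrodites, and its mean normalized count was 0.789, 2.24, 4.08 and 3.38 in males from L2 to YA, against 0.497, 3.06, 5.75 and 18.1 in hermaphrodites. At YA it had 1.85, 5.66, 1.95 and 4.08 in males, against 28.7, 3.47, 13.8 and 26.3 in hermaphrodites, of which repeat 2 lay within the male range. In a fit with no filter on low counts the YA difference was -1.93 ± 0.59 (adjusted p = 0.00723), but with a mean count of 3.67 in that fit htp-1 could not be called.

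HIM-3, which binds the axis through HTP-3 and is needed for homolog alignment, had the lowest counts. Its gene is on chromosome IV (6977508 to 6978765, plus strand). The 3′ end of him-3 overlaps that of the antisense gene prkl-1 (6978742 to 6986935, minus strand). Without strand, reads within the shared stretch cannot be assigned to 1 of the genes. The mean was 0.448, 0.189, 1.22, 2.05 and 2.33 normalized counts in males from L1 to YA, against 0.134, 0.496, 0.989, 1.60 and 5.97 in hermaphrodites. The sexes overlapped at each of the 5 stages, and no library of any group exceeded 10.8. A sex difference was not detectable at this depth (unfiltered fit, adjusted p = 0.357 at YA).

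REC-8 is the meiosis-specific kleisin, the subunit that closes the cohesin ring, and holds sister chromatids together. Its gene is on chromosome IV (13349122 to 13353193, minus strand). In males rec-8 had 2.43, 5.37, 1.94 and 0 normalized counts at L1, 11.7, 11.6, 9.81 and 5.58 at L2, 11.8, 20.9, 7.88 and 20.8 at L3, 19.4, 25.8, 21.0 and 25.1 at L4 and 37.9, 50.1, 46.7 and 28.5 at YA. In hermaphrodites it had 1.02, 0, 1.34 and 1.08 at L1, 15.9, 4.94, 11.5 and 7.97 at L2, 24.0, 29.0, 25.1 and 23.4 at L3, 59.4, 42.4, 48.3 and 39.4 at L4 and 55.1, 55.5, 44.9 and 107 at YA. Males and hermaphrodites did not overlap at L3 and L4, with males the lower in both, and overlapped at the other stages. The L4 difference was called (log2 fold change -1.05 ± 0.36 SE, a 2.06-fold lower level in males, adjusted p = 0.0184). It lay close to the fold threshold, and was not called without L4 male repeat 1 (-0.98, adjusted p = 0.0506) or L4 hermaphrodite repeat 1 (-0.91, adjusted p = 0.0588), with DESeq2 size factors (-0.89, adjusted p = 0.0431), with DESeq2's Wald test (-0.89, adjusted p = 0.0206) or with no filter on low counts (-0.97, adjusted p = 0.0383). At L3 the difference was -0.76 ± 0.37 (adjusted p = 0.242) and at YA -0.69 ± 0.34 (adjusted p = 0.0821), or -0.29 (adjusted p = 0.549) without YA hermaphrodite repeats 1 and 4.

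Through development rec-8 rose from L1 to L2 in males (log2 2.13 ± 0.57, adjusted p = 0.00386) and, with the largest fold of any tested member with counts at both stages, in hermaphrodites (3.41 ± 0.51, 10.64-fold, adjusted p = 8.87e-07). From L2 to L3 it rose in hermaphrodites (1.32 ± 0.38, adjusted p = 0.0139), a call lost without L2 hermaphrodite repeat 2 (1.10, adjusted p = 0.0751) or repeat 4 (1.23, adjusted p = 0.0519), and gave 0.63 ± 0.40 in males (adjusted p = 0.348). The later steps were 0.61 and 0.83 in males and 0.90 and 0.47 in hermaphrodites on the log2 scale, none of them called. The last of these was 0.07 without YA hermaphrodite repeats 1 and 4.

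**Figure D3:**
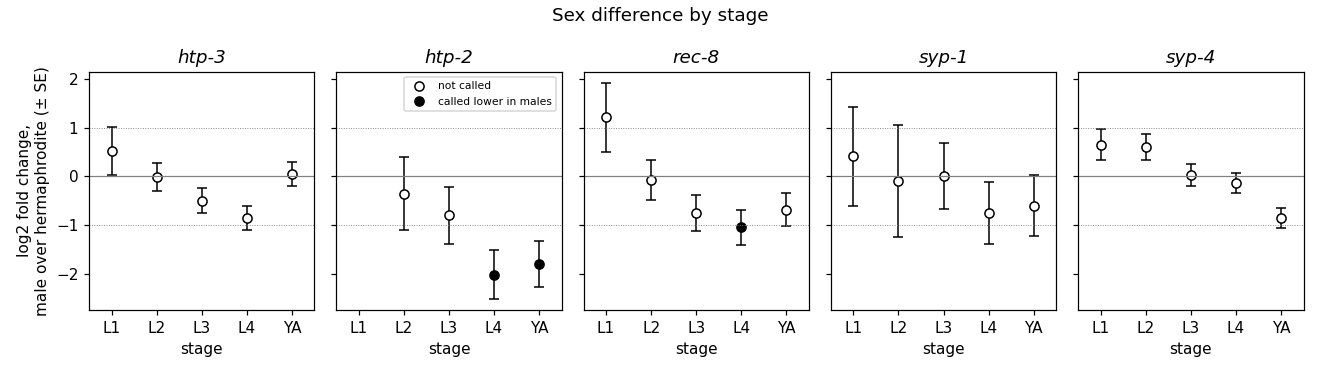
Log2 fold change of males over hermaphrodites (± SE) at each stage for the 5 members tested. Filled points passed the adjusted p and fold thresholds (dotted lines at 1 and -1), and htp-2 at L1, with no count in males, is not drawn. The values of htp-2, rec-8 and htp-3 are lowest at L4, at -2.02, -1.05 and -0.86, and that of syp-4 at YA, at -0.86.

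The SYP proteins span the space between homologous axes and depend on one another for assembly. syp-4, on chromosome I (6847511 to 6849923, plus strand), had the most UMIs over the 40 libraries. htp-3 had the larger share of the summed member count in L2 males (33.6% against 33% for syp-4) and in L2, L3 and L4 hermaphrodites (35.9%, 34.6% and 32.2%, against 23.2%, 29% and 31.1% for syp-4). In males syp-4 had 9.70, 7.17, 5.81 and 9.50 normalized counts at L1, 16.4, 12.9, 23.4 and 14.5 at L2, 42.0, 51.5, 44.3 and 44.8 at L3, 86.4, 87.7, 110 and 95.6 at L4 and 162, 167, 217 and 136 at YA. In hermaphrodites it had 5.78, 3.34, 5.37 and 5.38 at L1, 7.95, 12.8, 12.2 and 11.9 at L2, 48.0, 46.2, 39.2 and 44.1 at L3, 99.7, 80.5, 127 and 109 at L4 and 212, 380, 366 and 278 at YA. All stages were separated without overlap in each sex. Males were above all hermaphrodite libraries at L1 and L2, overlapped them at L3 and L4, and at YA only the highest male library overlapped the hermaphrodite range.

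In males syp-4 rose by 1.11 ± 0.29, 1.40 ± 0.23 and 1.06 ± 0.21 on the log2 scale at the steps up to L4 (adjusted p = 0.00334, 1.05e-05 and 1.07e-04), and its step to YA, 0.84 ± 0.20, had an adjusted p of 0.00128 but was under the fold threshold. The male step from L1 to L2 lost its call without L1 male repeat 3 (0.96) or L2 male repeat 3 (0.89), with DESeq2 size factors (0.95) or with DESeq2's Wald test (0.99), and that from L3 to L4 without L4 male repeat 3 (0.99). In hermaphrodites it rose at all 4 steps, by 1.16 ± 0.27, 1.96 ± 0.24, 1.24 ± 0.21 and 1.56 ± 0.20 (adjusted p = 5.83e-04, 6.47e-08, 9.86e-06 and 3.52e-08), the last being 1.81 without YA hermaphrodite repeats 1 and 4. The sex difference was 0.65 ± 0.31 at L1 (adjusted p = 0.33), 0.60 ± 0.26 at L2 (adjusted p = 0.586), 0.03 ± 0.22 at L3, -0.14 ± 0.20 at L4 and -0.86 ± 0.20 at YA (adjusted p = 3.16e-04), the last under the fold threshold. Without YA hermaphrodite repeats 1 and 4 the YA difference was -1.12 (adjusted p = 3.88e-06) and was called, and without repeat 1 alone it reached the fold threshold (adjusted p = 3.53e-05) and was called.

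syp-1, on chromosome V (16404274 to 16407701, plus strand), overlaps the same-strand gene F13A7.14 in its upstream part. It had 0 to 4.22 normalized counts in L1 males and 0.755 to 2.34 in L2 males, against 0.34 to 2.86 in L1 hermaphrodites and 0 to 2.98 in L2 hermaphrodites. At L3 it had 13.4, 6.43, 7.88 and 5.47 in males, against 16.7, 6.34, 10.0 and 0 in hermaphrodites. At L4 it had 8.82, 9.28, 10.5 and 23.5 in males, against 17.8, 17, 22.3 and 28.8 in hermaphrodites, and at YA 13.9, 21.0, 11.7 and 10.2 in males, against 46.3, 6.94, 0 and 35.5 in hermaphrodites. The sexes overlapped at every stage, with the widest spread among the YA hermaphrodites. The YA difference was -0.60 ± 0.62 (adjusted p = 0.428). It turned to 2.01 without YA hermaphrodite repeats 1 and 4 (adjusted p = 0.0581), not called, and the libraries did not overlap, with 10.2 to 21 in males, against 6.94 and 0 in hermaphrodites. syp-1 was the 1 tested member not called from L1 to L2, where the log2 fold change was -0.56 ± 1.16 in males (adjusted p = 0.785) and -0.06 ± 0.99 in hermaphrodites (adjusted p = 1). It was called higher from L2 to L3 in males (2.59 ± 0.90, adjusted p = 0.0406) and in hermaphrodites (2.49 ± 0.87, adjusted p = 0.0464). Both calls were near the threshold. Leaving out single libraries removed the male call in 7 of 40 cases (2.23 to 2.93 over the 40, adjusted p 0.0162 to 0.152) and the hermaphrodite call in 25 of 40 cases (1.95 to 3.05, adjusted p 0.0177 to 0.21). These cases were L2 male repeats 1 to 4, L3 male repeats 1 and 3 and L4 male repeat 2 for males, and for hermaphrodites libraries of all 5 stages, among them L2 hermaphrodite repeats 3 and 4 and L3 hermaphrodite repeats 1, 2 and 3.

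syp-3, on chromosome I (8663045 to 8664445, minus strand), did not climb steadily. It was present at L3, nearly absent at L4 and present again at YA in both sexes. The sources used here do not say whether all stages were counted in 1 run with the same annotation, so the L4 values are given as counted. In males the 4 libraries had 3.51, 3.86, 2.26 and 1.12 normalized counts at L2, 6.72, 6.43, 6.89 and 6.56 at L3, 0, 0, 1.31 and 0 at L4 and 7.39, 5.66, 7.79 and 9.17 at YA. In hermaphrodites they had 4.97, 3.95, 3.06 and 4.98 at L2, 3.13, 5.44, 7.03 and 16.5 at L3, 0, 0, 0 and 0.961 at L4 and 30.9, 5.20, 10.4 and 15.4 at YA. No L4 library overlapped any L3 or YA library of its sex. In UMIs this is 1 at L4 against 25 at L3 and 32 at YA in males, and 1 at L4 against 28 at L3 and 33 at YA in hermaphrodites. The L4 level was 0.051 of the L3 level in males (95% counting interval 0.00124 to 0.311) and 0.0394 in hermaphrodites (9.63e-04 to 0.238). The YA level was 21.7 times the L4 level in males (3.63 to 884) and 50.2 times in hermaphrodites (8.4 to 2042). These intervals are exact binomial and cover counting error only.

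In the fit with no filter on low counts the step of syp-3 from L3 to L4 had a log2 fold change of -3.74 ± 0.99 in males (adjusted p = 0.00322) and of -4.26 ± 0.94 in hermaphrodites (adjusted p = 5.19e-04). That from L4 to YA had 4.22 ± 0.95 in males (adjusted p = 7.54e-04) and 5.04 ± 0.90 in hermaphrodites (adjusted p = 1.36e-05). With a mean count of 4.69 in this fit, under the minimum of 5, none of these counts as a call. The same gap was rare in the table: of 5947 genes with at least 40 UMIs over the 8 libraries of L3 and over the 8 of YA, 3 had no more than 3 UMIs over the 8 of L4, namely syp-3 (53, 2 and 65 UMIs at L3, L4 and YA), 21ur-11590 (125, 1 and 42) and R08B4.12 (57, 2 and 154). This search was made after the syp-3 values were seen. The L4 libraries held 3744519 to 6139147 UMIs in males and 3184047 to 6492482 in hermaphrodites. At L3 these were 3891534 to 7041044 and 5119242 to 6701241. htp-3 and syp-4 were counted in all 8 of them, but have 1748 and 2613 UMIs over the 40 libraries, against 161 for syp-3. The ratios of syp-3 levels given above are scaled to effective library size. Whether depth has a further part in the gap was not tested. The 3′ end of syp-3 overlaps the antisense gene mrt-1, which was not analysed here. No sex difference of syp-3 was found at L3 (-0.29 ± 0.58, adjusted p = 0.917) or YA (-0.59 ± 0.55, adjusted p = 0.42).

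Over the 5 tested members the sex comparisons gave no call at L1, L2 or L3. Of all genes tested, 6.28% were called in either direction at L1, 0.703% at L2 and 8.62% at L3. With edgeR, members with an unadjusted p under 0.05 numbered 0 at L1, 1 at L2 (syp-4) and 1 at L3 (rec-8), and DESeq2 also called 0 at each. At L4, 2 of 5 were called lower in males, against 14.3% of all genes, and 0 of 5 higher, against 14%. At YA, 1 of 5 was called lower, against 22.1% of all genes, and 0 of 5 higher, against 22.5%. For higher levels in males edgeR gave 0 members with an unadjusted p under 0.05 at L4 and 0 at YA, and DESeq2 called 0 at each. The median log2 fold change of the 5 members was 0.52, -0.07, -0.50, -0.86 and -0.69 from L1 to YA, beside -0.14, 0.00, 0.03, 0.05 and 0.00 for all genes.

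The YA values depended on the scaling of the libraries. With no filter on low counts the median of all genes moved to 0.36 in the YA sex comparison and with DESeq2 size factors to 0.18, and at L4 to 0.21 under either. The calls were then split 2412 higher and 1181 lower in YA males with no filter, against 1824 and 1791 with it, and 1410 higher and 927 lower in L4 males with DESeq2 size factors, against 1139 and 1158 with TMM. As fitted, the YA difference of htp-2 was -1.80 under the main scaling, -1.63 with size factors and -1.39 with no filter. That of syp-4 was -0.86, -0.66 and -0.42 (adjusted p = 3.16e-04, 0.00318 and 0.0902), and at L4 rec-8 was at -1.05, -0.89 and -0.97. Measured from the median of all genes, htp-2 was at -1.80, -1.81 and -1.75, and syp-4 at -0.86, -0.84 and -0.79. On the same scale rec-8 at L4 was at -1.10, -1.10 and -1.18. Subtracting the median removes by construction a shift that all genes share, so the likeness of these values is not a test.

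By stage, members were called higher at 4, 3, 1 and 0 of the steps L1 to L2, L2 to L3, L3 to L4 and L4 to YA in males, out of 5 tested each time. In hermaphrodites the numbers were 4, 4, 3 and 1. Over all genes, 10.9%, 11.3%, 15.9% and 10.1% were called higher at these steps in males, and 14.8%, 8.04%, 16.1% and 21.2% in hermaphrodites. The genes called from L1 to L2 were htp-2, htp-3, rec-8 and syp-4 in both sexes. From L2 to L3 they were htp-3, syp-1 and syp-4 in both sexes, with rec-8 in hermaphrodites as well, and from L3 to L4 they were syp-4 in males and htp-2, htp-3 and syp-4 in hermaphrodites. From L4 to YA syp-4 was called in hermaphrodites and 0 members in males, where edgeR gave 3 with an unadjusted p under 0.05 (htp-3, syp-4 and rec-8) and DESeq2 called 0. All 3 were called without L4 male repeat 2, at 1.03, 1.03 and 1.14. No tested member was called lower at any step in either sex. In that direction edgeR gave 0 members with an unadjusted p under 0.05, and DESeq2 called 0. The share of all genes called lower at 1 or more steps was 28.5% in males and 42.9% in hermaphrodites. syp-3 failed the filter on low counts and is outside this count of members. From L3 to L4 the fit with no filter put syp-3 at -3.74 in males and -4.26 in hermaphrodites. Without YA hermaphrodite repeats 1 and 4, syp-1 was called lower from L4 to YA in hermaphrodites (-2.62, adjusted p = 0.0119).

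Whether the sex difference itself changed with stage was tested by an F test over the 4 interaction terms. Of the 5 members, syp-4 passed (F = 7.11, adjusted p = 8.89e-04), as did 51.7% of all genes, and it passed in all 40 fits with 1 library left out (adjusted p 1.54e-04 to 0.0118). htp-3 had an adjusted p of 0.0711, rec-8 of 0.115, htp-2 of 0.302 and syp-1 of 0.867. Step by step, no member passed from L1 to L2, L2 to L3 or L3 to L4, where 1.39%, 0.555% and 10.4% of all genes did. From L4 to YA, 36.5% of all genes and 2 of 5 members passed at an adjusted p of 0.05, without a fold threshold. htp-3 had the larger step in males (difference 0.90 ± 0.35 on the log2 scale, adjusted p = 0.0403), with a mean of 59.7 ± 7 at L4 and 104 ± 22.9 at YA in males (SD, n = 4 each), and 108 ± 24.7 and 101 ± 41.4 in hermaphrodites. syp-4 had the larger step in hermaphrodites (difference -0.72 ± 0.28, adjusted p = 0.0431), with 95 ± 10.9 and 170 ± 34.1 in males, and 104 ± 19.4 and 309 ± 78.9 in hermaphrodites. With single libraries left out, htp-3 passed in 33 of 40 fits (adjusted p 0.00728 to 0.0946) and syp-4 in 7 of 40 (0.0111 to 0.189), so the syp-4 call at this step rests near the threshold. The htp-3 call was lost without L4 male repeat 4, YA male repeats 1 or 3, L4 hermaphrodite repeats 1 or 3, or YA hermaphrodite repeats 2 or 3. Without YA hermaphrodite repeats 1 and 4 the differences were 1.52 for htp-3 (adjusted p = 1.97e-04) and -0.97 for syp-4 (adjusted p = 0.0019), and syp-1 passed as well, at 2.77 (adjusted p = 0.0285).

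Genes that work beside the axis and the synaptonemal complex were listed by function. Their counts stand beside the same shares of all genes as above, 14% called higher and 14.3% lower at L4, and 22.5% higher and 22.1% lower at YA. The counts below without YA hermaphrodite repeats 1 and 4 are from another fit, in which 8814 genes were tested. In its YA sex comparison 2350 of these genes were called higher and 1808 lower, with a median of 0.38. Nothing particular to a list was tested. Of 11 listed cohesin subunits and regulators other than rec-8, 9 were tested. At L4, 0 were called higher and 4 lower in males, with a median of -1.05. him-1, the SMC-1 subunit, averaged 17 ± 3.36 normalized counts in males and 65.1 ± 26.9 in hermaphrodites (SD, n = 4 each), with a log2 fold change of -1.96 ± 0.40 (SE). scc-1, the kleisin of mitotic cohesin, gave -1.90 ± 0.43, smc-3 gave -1.20 ± 0.30 and scc-3 gave -1.05 ± 0.39. At YA 0 were called higher and 5 lower. wapl-1, which releases cohesin from chromosomes, averaged 79.6 ± 12.5 in males and 686 ± 457 in hermaphrodites (-3.11 ± 0.29), and scc-3, smc-3 and him-1 gave -1.98, -1.04 and -1.05. Leaving out YA hermaphrodite repeats 1 and 4, 3 were called lower and 0 higher (wapl-1 -3.74, scc-3 -2.73 and smc-3 -1.13), and him-1 was at -0.82.

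Of 33 listed recombination genes 16 were tested. In L4 males 0 were called higher and 4 lower, namely the helicase gene rtel-1 (-1.63 ± 0.45), the nuclease gene slx-1 (-1.75 ± 0.53), mre-11 of the break-processing complex (-1.17 ± 0.38) and com-1 (-1.19 ± 0.44). In YA males 0 were called higher and 10 lower, against 22.5% and 22.1% of all genes. xnd-1, which shapes the distribution of crossovers, averaged 109 ± 15.9 in males and 836 ± 562 in hermaphrodites (-2.94 ± 0.33). The Bloom helicase gene him-6 gave -2.54 ± 0.32, brc-1, the BRCA1 ortholog, gave -2.67 ± 0.37, and Y39B6A.16, listed as zhp-4, gave -2.23 ± 0.28. With YA hermaphrodite repeats 1 and 4 left out, 18 genes of the list were tested, of which 8 were called lower and 2 higher, with a median of -0.86 beside 0.38 for all genes. xnd-1, him-6, brc-1 and Y39B6A.16 were then at -3.59, -3.24, -3.39 and -2.72.

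In the sex comparisons at L4 and YA, the pairing and synapsis calls were all higher in males. The segregation list held calls in both directions. Of 18 listed pairing and synapsis genes outside the members 5 were tested. skr-1, a Skp1-related gene whose product is also part of the synaptonemal complex, was the 1 called at L4, higher in males (22.0 ± 9.28 normalized counts in males and 8.69 ± 1.80 in hermaphrodites, 1.27 ± 0.44). At YA plk-2, a Polo-like kinase gene with a role at pairing centers, was the 1 called, higher in males (269 ± 29.3 in males and 129 ± 99.0 in hermaphrodites, 1.06 ± 0.33). Of 8 listed segregation genes 6 were tested. At L4 bir-1 of the chromosomal passenger complex (6.19 to 24.7 in males, 0 to 2.78 in hermaphrodites) and the securin gene ify-1 (4.70 to 16.5 in males, 0.961 to 6.36 in hermaphrodites) were called higher in males. At YA 3 were called lower in males, csc-1 (-2.42 ± 0.19) and icp-1 (-3.44 ± 0.31) of the same complex, and ify-1 (-1.84 ± 0.49). The sign for ify-1 thus differed between L4 and YA. Without YA hermaphrodite repeats 1 and 4, 2 segregation genes were called lower at YA (csc-1 at -2.57 and icp-1 at -4.10), and 2 pairing and synapsis genes were called higher, among them plk-2 at 2.58.

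**Figure D4:**
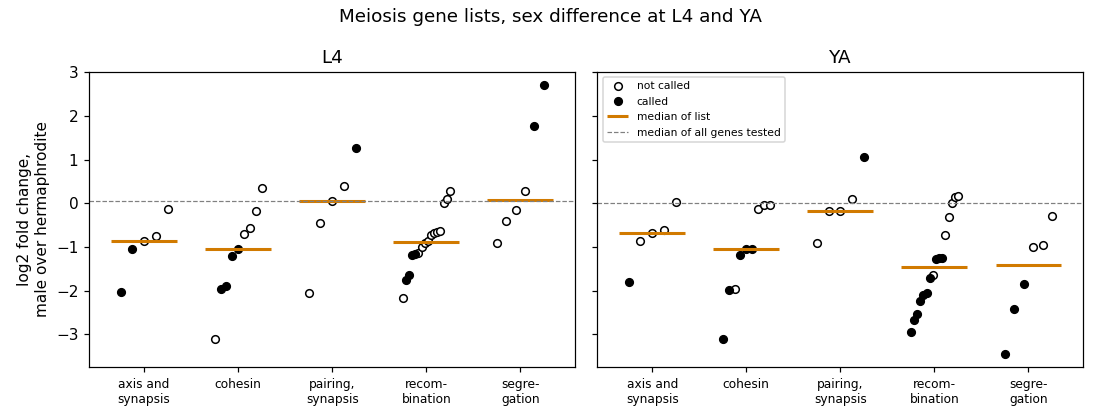
Log2 fold change of males over hermaphrodites at L4 (left) and YA (right) for each tested gene of the 5 lists. Filled points were called, orange bars are list medians and the dashed line is the median of all genes tested. The medians of the member, cohesin and recombination lists lie below the dashed line at both stages. They are at -0.86, -1.05 and -0.88 at L4 and at -0.69, -1.05 and -1.46 at YA. The segregation median is at 0.07 at L4 and -1.42 at YA, and that of pairing and synapsis at 0.05 and -0.17.

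The 5 tested members followed similar profiles over the 10 stage-by-sex groups. Pearson correlations between their group means of log2 CPM (UMIs scaled to a common total) ran from 0.85 (syp-1 with rec-8) to 0.99 (htp-3 with rec-8). Groups of 1 stage share worm age, and these values describe the 10 groups only. The mean standardized profile of the 5 was -1.30, -0.66, 0.09, 0.54 and 0.87 in males from L1 to YA, and -1.41, -0.69, 0.24, 1.14 and 1.19 in hermaphrodites. The 10 other genes most like this profile were his-74 (a histone H3 gene, r = 0.996), wago-2 (an Argonaute gene, 0.993), asfl-1 (a histone chaperone gene, 0.992), C08F8.3 (0.991), C14B1.12 (0.991), F58G11.3 (0.988), srx-41 (0.986), W03G9.2 (0.986), snpc-3.2 (0.985) and immt-2 (0.985). None of the 10 is in the other gene lists. Over 8105 other genes the median r was 0.07 and 282 exceeded 0.9.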

How the data were processed

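Bulk MARS-seq libraries of whole worms were trimmed by the authors with cutadapt, aligned with STAR 2.4.2a to WBcel235 and, once UMI duplicates were marked, assigned to genes by HTSeq-count (union mode). For the annotation release, the sources used here give nothing. The deposited whole-number counts were analysed. The same table holds the authors' DESeq2-normalized, batch-adjusted and transformed values and their mean counts, fold changes and p-values, none of which were used. Members and lists were chosen with earlier results of these data known.

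One edgeR 4.0.16 quasi-likelihood model (R 4.3.3, limma 3.58.1) of 10 group means was fitted to 40 libraries with TMM scaling. filterByExpr (minimum count 10, minimum total 15) kept 8110 genes, and p-values were adjusted by Benjamini-Hochberg over them. SEs were derived from the log2 fold change and its F statistic. Scripts were tested on simulated counts. DESeq2 1.42.0 was an alternative. Coordinates are those of the Ensembl annotation of WBcel235. Named genes outside the members were, per list, up to 4 called genes with the smallest p in the L4 and YA sex comparisons, and the 10 genes of most similar profile (log2 CPM, prior count 2). The L4 gap and its 3 genes were added after their values were seen, as were the marker sums and other lists without YA hermaphrodite repeats 1 and 4 and the fit without a minimum mean count.

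Same-numbered male and hermaphrodite repeats all correlated in their deviations above 0.1 only at L1 (0.587, 0.136, 0.371 and 0.273), so the numbers were taken, from the data and not from the labels, to pair samples at that stage only. With a replicate block L1 also had 0 members called.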

Additional observations from a re-analysis of the deposited data

Results flagged for a closer look

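Among 50 groups of 4 libraries (5 members in 10 groups), 2 had a library far from the other 3 by Dixon's criterion, where chance gives about 1 in 20. syp-1 in L4 males had 23.5 normalized counts in the highest library, against 8.82, 9.28 and 10.5 in the others. syp-4 in L1 hermaphrodites had 3.34 in the lowest library, against 5.37, 5.38 and 5.78 in the others.

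The change between L4 and YA passed the test of the interaction term for htp-3 (0.90 on the log2 scale, larger in males) and for syp-4 (-0.72, larger in hermaphrodites). At this step 36.5% of all genes passed. With single libraries left out, htp-3 passed in 33 of 40 fits and syp-4 in 7 of 40. With no filter on low counts syp-4 gave -0.37 (adjusted p = 0.405). After thinning neither passed (adjusted p = 0.337 for htp-3 and 0.156 for syp-4). The sex difference of syp-4 also changed over the 5 stages (F = 7.11), in a test that 51.7% of all genes passed.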

How the results depend on the processing

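Of 28 member counts under 248 alternative values, 23 moved by more than 1.5 times. Members lower in L4 males numbered 2, and 1 with DESeq2 size factors, no low-count filter, counts thinned to the smallest library or DESeq2's Wald test. Members lower in YA males numbered 1, 2 without a minimum fold change and 0 after thinning. In males the steps from L1 to YA had 4, 3, 1 and 0 members higher. The first gave 2 after thinning or with the Wald test, the second 1 with no filter and 0 after thinning, the third 2 without a minimum fold change and 0 after thinning, and the fourth 2 with no filter or no minimum fold change and 1 after thinning. In hermaphrodites thinning gave 2 in place of 4 from L1 to L2 and 1 in place of 3 from L3 to L4. Leaving out YA hermaphrodite repeats 1 and 4 gave 1 member lower from L4 to YA in place of 0, syp-1, whose log2 fold change turned to -2.62. Members whose sex difference changed with stage numbered 1, and 2 with no filter or without these repeats. Members whose stage step differed between the sexes numbered 2, and 1 with no filter (syp-4 was lost), 0 after thinning. The cause of these changes was not tested, although thinning leaves 1724365 UMIs a library.

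With single libraries left out, members lower in males ranged from 1 to 2 at L4 and from 1 to 2 at YA. The male steps ranged from 2 to 4, 2 to 3, 0 to 1 and 0 to 3, and the hermaphrodite steps from 3 to 4, 2 to 5, 2 to 4 and 1 to 1. Members whose sex difference changed with stage ranged from 1 to 2, and those with a differing step from 0 to 2. Over 85 fold changes and 4108 alternative values, 1 reversed, 125 lost and 21 gained their call. htp-2 kept its lower call in L4 and YA males in all 40 fits with 1 library left out, but lost both after thinning, where its mean count of 4 fell under the minimum, and the YA call without YA hermaphrodite repeats 1 and 4.

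Outside L1 the libraries share only a repeat number. A replicate block within stage left 1 member with a differing step in place of 2 (htp-3, at 0.93, was lost), and a block within sex removed syp-1 from L2 to L3 in both sexes (2.58 in males, 2.52 in hermaphrodites). At L1 1 of 4 male libraries correlated better with another number. Depth limits him-3, htp-1 and syp-3, with 48, 113 and 161 UMIs in all, and no count of members can be read as a share of 10.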
